A study of Homo sapiens with 4 samples.

Results

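The 6 genes of protein folding and degradation, VCP, DNAJA1, CCT5, SGTA, THOP1 and MIDN, were followed in ribosome profiling of A375 cells, an established human melanoma line. Ribosome profiling sequences the short RNA fragments that ribosomes protect from nuclease, called footprints, so the reads on a gene follow how many ribosomes occupy its mRNA. The members were chosen as the rows of the deposited count table that lie at these genes on the build GRCh38. They make up 6 of its 78724 rows, and of the 9443 rows that held any read. All 6 held at least 20 reads over the 4 libraries, the minimum below which a row is given as counts only.

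Cells fold new proteins with chaperones and remove the faulty ones through ubiquitin and the proteasome. HSP70 and its J-domain partners catch unfolded chains, the ring-shaped chaperonin CCT encloses proteins such as actin and tubulin, and the ATPase p97, the product of VCP, pulls ubiquitin-marked proteins out of membranes and complexes. The proteasome cuts what it receives into short peptides, which cytosolic peptidases trim further, and some of these peptides are shown on the cell surface by MHC class I. The title of the series names faulty translation and new peptide epitopes in cancers lacking ASS1, the enzyme that lets cells make arginine from citrulline.

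A375 cells were kept for 48 h in control medium, or in a medium in which every amino acid but arginine had been added back to an amino-acid-free base. There were 2 libraries per medium, labelled replicate 1 and 2. All libraries came from the same line, and the labels name no engineered allele. The labels do not say if the replicates were cultured separately, so a p-value here covers the spread among 4 libraries, which may be technical. They also do not name the base of the control medium. Library totals ran from 105004 to 234766 counts, and the members took between 0.589% and 0.802% of them. The deposited coordinates are those of GRCh38, while the submitters' processing notes name GRCh37 and hg19, and 72.7% of the protein-coding rows outside 3 stretches of the genome were listed at 0. The members lie inside these stretches, which run from SDHA to HMGCS1 on chromosome 5, from VLDLR to VCP on chromosome 9 and from ATP5F1D to CHAF1A on chromosome 19. The stretches were set by their end genes after the data were seen, as places where neighbouring, broadly used genes hold reads. VCP, itself a member, is the end of its stretch, and its reads were known when that end was set. Of the protein-coding rows in the 3 stretches, 56 of 129, 65 of 130 and 57 of 98 held 20 or more reads. Rows past the ends can also hold reads, as STOML2 beyond VCP does. There 34.9%, 35.4% and 14.3% of the protein-coding rows were at 0. How much of a gene's reads its row holds was not measured. Of 7 melanoma markers matched to rows, PMEL, TYR, SOX10 and MITF were at 0, all outside the stretches. The 7 held 23 and 36 reads together in the control libraries and 1 and 2 in the arginine-free ones, nearly all on TYRP1 and MLANA. Of 9 markers of leukocytes, fibroblasts, epithelium and endothelium, 7 were at 0, and together they held 0 and 4 reads in control and 6 and 1 in arginine-free medium. Their part in the results was not tested.

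Footprints on 2 of the 6 genes, the peptidase gene THOP1 and the proteasome shuttle gene MIDN, rose without arginine, by 2.12-fold and 1.71-fold. With edgeR 0 of 6 fell, also at an unadjusted p under 0.05, and DESeq2 called 0 of 6 in either direction. The other 4, VCP, DNAJA1, CCT5 and SGTA, did not pass the test, with fitted log2 fold changes from -0.08 to 0.48. Over all 2526 rows tested, 16.0% were called higher and 16.9% lower at an adjusted p under 0.05 (edgeR quasi-likelihood test, Benjamini-Hochberg adjustment over these rows), and 15.1% and 15.1% of 159 tested protein-coding rows in the stretches. The median log2 fold change was 0.41 over the 6 members, -0.03 over all tested rows and -0.03 over the 159. The members of chromosome 19 lie among rows with a median of 0.14, those of chromosome 9 among rows with 0.03, and CCT5 on chromosome 5 among rows with -0.22. RNA abundance was not analysed here, so more mRNA and more ribosomes per mRNA cannot be told apart.

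**Figure D1:**
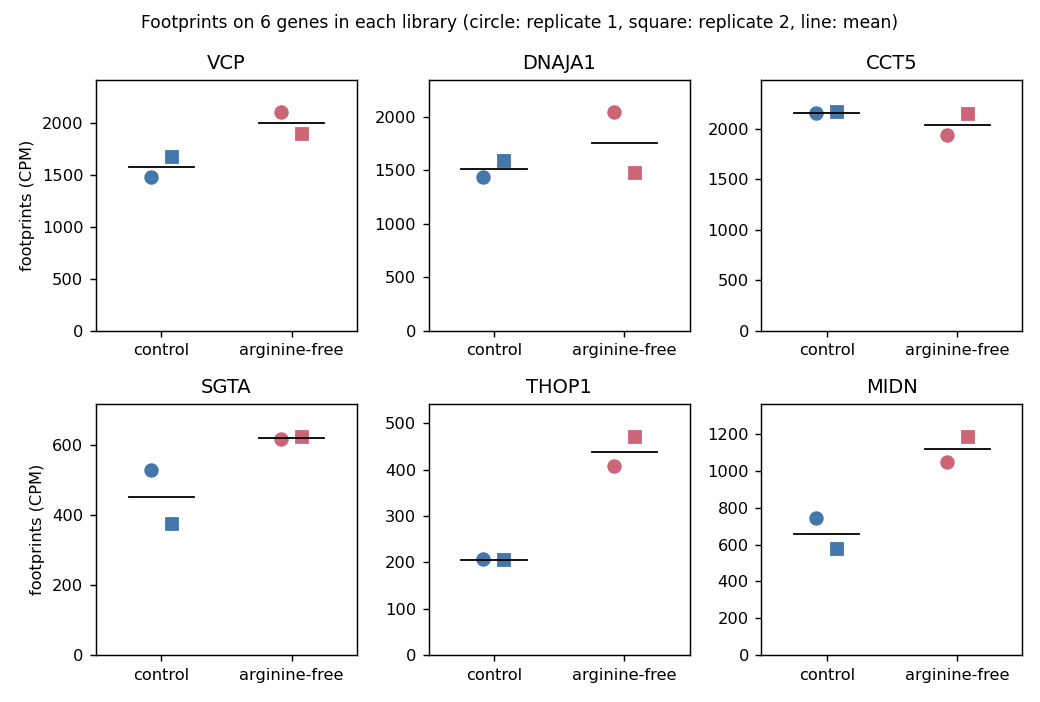
Footprints per library, in CPM (y axis from 0 in each panel), on the 6 genes in control medium (blue) and arginine-free medium (red). Circles are replicate 1, squares are replicate 2 and lines are means of 2 libraries. THOP1 went from 206 to 439 CPM and MIDN from 659 to 1118, and in DNAJA1 the groups overlap.

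THOP1 encodes thimet oligopeptidase, a zinc peptidase of the cytosol that cuts short peptides, among them products of the proteasome. Its row (ENSG00000172009.15, chromosome 19, 2785503 to 2815807, plus strand) held 22 and 40 reads in the control libraries and 94 and 75 in the arginine-free libraries. Scaled for depth, that is 207 and 205 CPM against 407 and 471, where CPM are counts scaled to one common total of the tested rows after TMM. Both arginine-free libraries lay above both controls, as was so for 33.1% of all tested rows. The 2 controls differed from each other by little, but with 22 and 40 reads their counting error is wider than that difference. The means were 206 ± 1.55 and 439 ± 45.2 CPM (SD, n = 2 each), and the log2 fold change was 1.08 (SE 0.27, 95% interval 0.51 to 1.65, edgeR adjusted p = 0.00674). Counting error alone, from 62 reads against 169 and scaled by the tested totals, leaves a ratio between 1.53 and 2.79 (exact 95% binomial interval). The size of the change was nearly the same without control replicate 2, at 1.10, but the call ended (edgeR adjusted p = 0.0621), and it also ended with DESeq2 (adjusted p = 0.0851). DESeq2 called 309 rows in either direction, or 3.27% of the 9443 rows with any read. That set is wider than the 2526 rows tested with edgeR, which called 833, so the shares have unlike bases.

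MIDN encodes midnolin, which carries nuclear proteins to the proteasome without ubiquitin as a tag. The row (ENSG00000167470.14, chromosome 19, 1248553 to 1259143, plus strand) held 79 and 112 reads in control and 242 and 189 in arginine-free medium. Its levels were 745 and 574 CPM against 1048 and 1187. Both arginine-free values lay above both controls, as was so for 33.1% of all tested rows. Control replicate 1 stood nearer to the arginine-free libraries than control replicate 2 did. From 659 ± 120 CPM the mean went to 1118 ± 98.3 (SD, n = 2 each), which is 0.77 on the log2 scale (SE 0.22, 95% interval 0.30 to 1.25, edgeR adjusted p = 0.0154). Without control replicate 2 the value was 0.61 and the call ended (edgeR adjusted p = 0.259), as it did with DESeq2, at 0.86 (adjusted p = 0.0743). With the replicate number as a block MIDN had an edgeR adjusted p of 0.0499, just inside the threshold. It was likewise near with library totals only (0.0498) and with a filter of at least 50 counts in each library of 1 medium (0.0437). The other scalings gave 0.0159 and 0.0161, nuclear rows alone 0.0097 and no filter 0.0083.

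VCP encodes p97, the ATPase that delivers ubiquitin-marked proteins to the proteasome. The row (ENSG00000165280.18, chromosome 9, 35053928 to 35072668, minus strand) held 157 and 326 reads in control and 486 and 302 in arginine-free medium, or 1480 and 1672 CPM against 2105 and 1897. Both arginine-free values lay above both controls, which was so for 33.1% of all tested rows. The means were 1576 ± 136 and 2001 ± 147 CPM (SD, n = 2 each). The log2 fold change of 0.34 (SE 0.22) had a 95% interval from -0.12 to 0.81 and did not pass (edgeR adjusted p = 0.243). On the fold scale that interval runs from 0.92 to 1.75, so a rise as large as that of MIDN is inside it. A row on the same strand shares 471 exon bases with VCP and held no read, so reads in those bases may be missing from VCP, since the count had no option for shared bases.

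Among the 3 folding genes none passed. DNAJA1, a J-domain partner of HSP70 (ENSG00000086061.16, chromosome 9, 33025273 to 33039907, plus strand), held 152 and 310 reads in control and 471 and 235 in arginine-free medium. Levels were 1433 and 1590 CPM in control against 2040 and 1476. Arginine-free replicate 1 was the highest of the 4 and arginine-free replicate 2 lay between the controls, so the groups overlapped. Its log2 fold change was 0.22 (SE 0.23, 95% interval -0.27 to 0.71, edgeR adjusted p = 0.50). It rested on that library, since without arginine-free replicate 1 the value was 0.01 and without arginine-free replicate 2 it was 0.48, and neither passed.

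CCT5, the epsilon subunit of the chaperonin CCT (ENSG00000150753.12, chromosome 5, 10249929 to 10266389, plus strand), held 229 and 422 reads in control and 448 and 342 in arginine-free medium. Its 4 values, 2158 and 2164 CPM in control and 1940 and 2148 in arginine-free medium, lay closest together of the 6 genes. The arginine-free values were both below the controls, one by a margin of few CPM, which was so for 34.2% of all tested rows. The log2 fold change was -0.08 (SE 0.22, 95% interval -0.54 to 0.38, edgeR adjusted p = 0.803), and its sign turned under 3 of 12 other settings. The lower bound is a fold of 0.686 and the upper one 1.3, which leaves out a change as large as that fitted for MIDN or THOP1. A row on the other strand shares 1734 exon bases with CCT5 and held no read. The count was also made without strand, so reads in those bases may be missing from CCT5.

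SGTA encodes a co-chaperone that receives newly made membrane proteins and passes them, with the BAG6 complex, to insertion or degradation. The row (ENSG00000104969.11, chromosome 19, 2754715 to 2783327, minus strand) held 56 and 73 reads in control and 142 and 99 in arginine-free medium. Levels were 528 and 374 CPM against 615 and 622, with the controls apart from each other and the arginine-free libraries nearly equal. The groups did not overlap, with arginine-free above control, as was so for 33.1% of all tested rows. The log2 fold change of 0.48 (SE 0.23, 95% interval -0.02 to 0.98, which holds the 0.77 fitted for MIDN) did not pass (edgeR unadjusted p = 0.0576, adjusted p = 0.128). Without control replicate 2, the lower of the controls, it was 0.25, and without control replicate 1 it was 0.73. Neither passed, at edgeR adjusted p of 0.687 and 0.155.

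**Figure D2:**
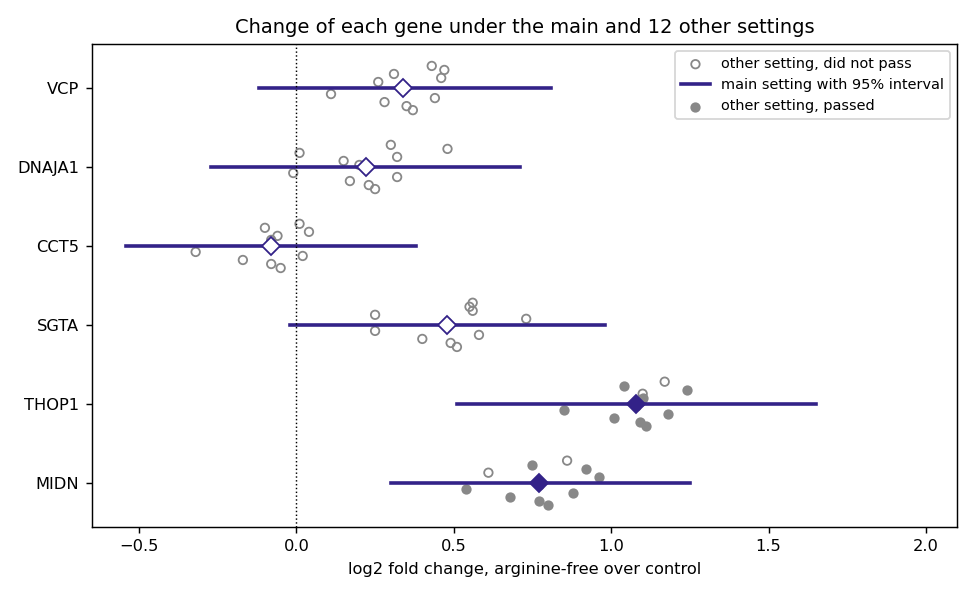
Log2 fold change of each gene, arginine-free over control, on the x axis. Diamonds and lines are the main setting with its 95% interval and circles are the 12 other settings, filled where the adjusted p was under 0.05. THOP1 lay between 0.85 and 1.24 and MIDN between 0.54 and 0.96, and no setting gave a call for the other 4.

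The DNA just before the start of THOP1 and MIDN, whose footprints rose, and of VCP, which did not pass, is shown. The interval of VCP also holds the rise fitted for MIDN, so VCP is not a gene known to be unchanged. Whether these letters bear on footprints was not tested. Each line gives 200 bases of RefSeq on GRCh38.p14, from 250 to 51 bases before the gene's start, read 5′ to 3′ along the gene's own strand. Capitals mark matches, on either strand and with overlaps allowed, to GAANNTTC (the paired core of a heat shock element), CCAAT (the CCAAT box), GGGCGG (the GC box), TGACGT (part of a cyclic AMP response element) and TGATGNAA (the core of an amino acid response element). No exon of the deposited table lies in these windows, which are chr19:2785253-2785452 for THOP1, chr19:1248333-1248532 for MIDN and chr9:35072676-35072875 for VCP.
THOP1: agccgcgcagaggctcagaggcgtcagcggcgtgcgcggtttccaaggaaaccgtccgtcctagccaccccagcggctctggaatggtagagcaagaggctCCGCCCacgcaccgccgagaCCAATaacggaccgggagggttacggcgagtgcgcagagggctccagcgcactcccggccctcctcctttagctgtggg
MIDN: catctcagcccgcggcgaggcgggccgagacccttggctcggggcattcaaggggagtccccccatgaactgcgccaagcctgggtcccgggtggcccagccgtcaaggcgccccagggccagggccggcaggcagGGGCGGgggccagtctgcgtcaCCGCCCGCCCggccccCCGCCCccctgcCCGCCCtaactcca
VCP: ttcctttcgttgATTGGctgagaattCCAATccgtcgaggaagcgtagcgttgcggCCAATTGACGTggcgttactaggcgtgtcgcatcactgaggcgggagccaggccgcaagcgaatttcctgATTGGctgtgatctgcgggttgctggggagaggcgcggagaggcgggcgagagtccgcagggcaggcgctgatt

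The MIDN window had 5 matches to GGGCGG, and the THOP1 window had 1 match to it and 1 to CCAAT. VCP had 4 matches to CCAAT and 1 to TGACGT. Of 35116 RefSeq windows of this length, 35.0% held GGGCGG, 27.4% CCAAT, 4.86% TGACGT, 4.6% GAANNTTC and 2.5% TGATGNAA. In the same window of DNAJA1, which is not printed because 96 of its bases are exon of the neighbouring gene APTX, GAANNTTC occurred 1 time and GGGCGG 2 times. SGTA had no match to any of the 5. The CCT5 window, chr5:10250287-10250486, was left out because it lies inside the gene's row, not before it. Of its 200 bases, 159 are the gene's own exon. The share of G and C was 77% in MIDN, 67.5% in THOP1 and 60.5% in VCP, against a median of 57.5% over all windows. A match describes letters and not a bound site.

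Per kilobase of annotated exon, with bases shared with other rows included, footprints were densest on DNAJA1 and sparsest on THOP1 in both media. In control medium the levels were 652 ± 48 CPM per kb for DNAJA1, 564 ± 1.12 for CCT5, 239 ± 20.6 for VCP, 167 ± 30.5 for MIDN, 153 ± 36.8 for SGTA and 35.7 ± 0.269 for THOP1 (SD, n = 2 each). With 2 libraries an SD can fall below the counting error, as that of THOP1 does. MIDN was above SGTA in each control library (189 against 179 and 146 against 127), but their ranges overlapped, while those of each other pair of neighbours in this order did not. In arginine-free medium the order was the same, at 758 ± 172, 534 ± 38.4, 304 ± 22.3, 284 ± 24.9, 210 ± 1.64 and 76 ± 7.83 CPM per kb. VCP and MIDN then overlapped, where in control medium VCP was higher, while MIDN lay above SGTA. The densest member stood 18.3-fold above the sparsest in control and 10.1-fold in arginine-free medium. Against 159 tested protein-coding rows of the stretches, the control level of CCT5 was at percentile 94.3, with DNAJA1 above it, and that of THOP1 at percentile 43.4. These lengths include untranslated exon parts, which carry few footprints, so levels of different genes are compared roughly. They also include the exon bases shared with other rows, 1734 of 3831 in CCT5 and 471 of 6587 in VCP, where reads may be missing. The levels of CCT5 and VCP may therefore be too low, and the order of CCT5 and DNAJA1 is not settled. The processing notes and the coordinates name unlike builds, and how much of a gene's reads its row holds was not measured. The order of the members, the fold between densest and sparsest member and the percentiles carry these limits.

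Rows matched to other genes of folding and degradation did not share a direction. Lists of 336 such genes besides the members were drawn up, from p97 cofactors, J-domain proteins and HSP70 and HSP90 partners to the proteasome, ubiquitin ligases and peptidases. Of 313 matched to rows, 192 were at 0. Tests were possible for 59 over all rows, and 5 were higher, 7 lower and 47 did not pass, with a median log2 fold change of 0.01. Both counts are smaller shares than the 16.0% higher and 16.9% lower of all tested rows. The proteasome list had 6 tested rows, and edgeR called 0 of them, also at an unadjusted p under 0.05, as did DESeq2. The chaperonin and prefoldin list had no tested row besides CCT5, so other subunits of CCT could not be set beside it. Of 9 tested peptidases besides THOP1, 3 were lower and 6 did not pass (median -0.37), and of 3 tested HSP90 partners 2 were lower and 1 did not pass (median -1.17). No other list had more than 1 called row in either direction. Of the 59 tested rows 43 lay outside the stretches, among them 6 of 6 of the proteasome, 3 of 3 HSP90 partners and 8 of 9 peptidases. Rows outside the stretches enter these counts by place alone, so those called there are not named. Whether they hold the reads of their matched genes was not tested, so the counts describe rows and need not describe those genes.

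Inside the stretches 20 of the 336 genes had rows, 16 were tested, and 1 was higher, 1 lower and 14 did not pass, where 15.1% of the tested protein-coding rows there were called in each direction. DCAF12, a substrate receptor of a cullin ubiquitin ligase on chromosome 9, held 16 and 16 reads in control and 57 and 36 in arginine-free medium. It rose, by 1.11 on the log2 scale (SE 0.35, edgeR adjusted p = 0.0261). That call ended without control replicate 2 (0.67, edgeR adjusted p = 0.358) and with DESeq2 (adjusted p = 0.262). SPPL2B, a protease that cuts within membranes, lies on chromosome 19 and held 15 and 28 reads in control and 6 and 11 in arginine-free medium. It fell, at -1.67 on the log2 scale (SE 0.47, edgeR adjusted p = 0.0137), and the call was lost without arginine-free replicate 1 (-0.99, edgeR adjusted p = 0.112) or with DESeq2 (adjusted p = 0.273).

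The other 14 did not pass. PLAA, a cofactor of p97, stood at a log2 fold change of 0.22 (SE 0.30), beside 0.34 for VCP. The J-domain protein DNAJC21, which acts in ribosome assembly, was at -0.44 (SE 0.36). BAG1, a nucleotide exchange factor of HSP70, held 33 reads over the 4 libraries, too few to be tested. TIMM13, a chaperone of mitochondrial import, stood at 0.34 (SE 0.21). Of the ubiquitin system, the linear-chain deubiquitinase OTULIN was at 0.35 (SE 0.24), the ER ligase MARCHF6 at -0.45 (SE 0.24), the ligase subunit SKP2 at -1.08 (SE 0.52) and the APC/C activator FZR1 at -0.93 (SE 0.36). FZR1 came nearest to the threshold (edgeR adjusted p = 0.0616) and was past it without arginine-free replicate 1 (-1.25, edgeR adjusted p = 0.0433), as MARCHF6 was with a filter of at least 50 counts in each library of 1 medium (-0.67, edgeR adjusted p = 0.039). The SUMO and ubiquitin ligases PIAS4, TOPORS and UHRF2 had values of 0.23 (SE 0.38), 0.64 (SE 0.36) and -0.71 (SE 0.56). UBE2R2, a ubiquitin-conjugating enzyme, was at 0.03 and the ligase adaptor KLHL9 at 0.0, and the ubiquitin-associated proteins UBAP1 and UBAP2 were at -0.35 and 0.27. DNAJB5, FBXL7 and MARCHF11 held 7, 9 and 5 reads in all.

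**Figure D3:**
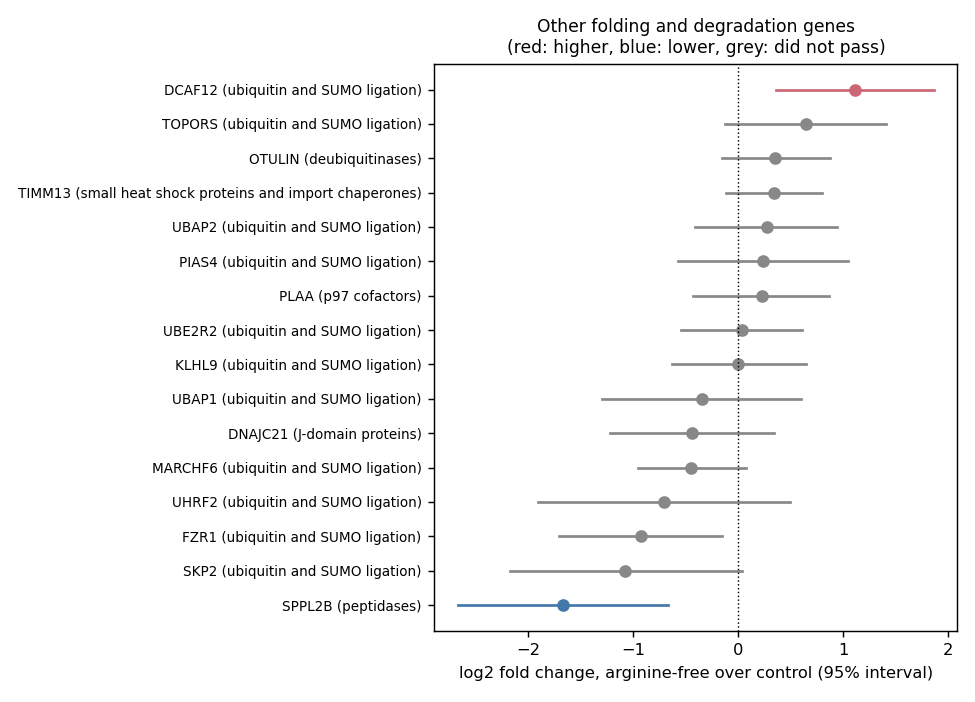
Log2 fold change, arginine-free over control, with 95% intervals on the x axis, for 16 tested folding and degradation genes of the 3 stretches other than the members, with the list of each in parentheses. DCAF12 (red, 1.11) was higher, SPPL2B (blue, -1.67) was lower and the 14 in grey did not pass.

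The members sit beside rows that changed in either direction. SGTA and THOP1 start 2.18 kb apart and are read in opposite directions. On the far side of SGTA, SLC39A3, a zinc carrier, lies 14.7 kb away, with 15 and 15 reads in control against 59 and 54, and it rose, by 1.51 on the log2 scale (SE 0.36, edgeR adjusted p = 0.00542). That call ended without control replicate 2 (1.08, edgeR adjusted p = 0.104) and with DESeq2 (adjusted p = 0.0642). So SGTA, which did not pass, lies between a pair of genes that rose. Its 95% interval of -0.02 to 0.98 overlaps those of THOP1 (0.51 to 1.65) and SLC39A3 (0.75 to 2.28). A difference of SGTA from them was not tested. On the other side of THOP1 the next tested row, TLE5, a transcriptional corepressor 237 kb away, was lower (-0.80, SE 0.27, edgeR adjusted p = 0.0351), a call lost under 6 other settings, among them leaving out either control library or arginine-free replicate 1.

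DNAJA1 starts 0.155 kb from APTX, a DNA repair gene. The APTX row held 6 and 23 reads in control and 50 and 49 in arginine-free medium and rose by 1.46 (SE 0.37, edgeR adjusted p = 0.00881), and that call ended without control replicate 1 (edgeR adjusted p = 0.0675) and with DESeq2 (adjusted p = 0.0864). On its other side SMU1, a splicing factor 1.86 kb away, stood at 0.08 (SE 0.21). Next to VCP, at 27.1 kb and just outside the stretch, the row at STOML2, a mitochondrial membrane protein, rose by 0.88 (SE 0.21, edgeR adjusted p = 0.00624) and did not pass without control replicate 1 (edgeR adjusted p = 0.108). The nearest tested row on the other side, IL11RA at 392 kb, held 8 and 13 reads against 1 and 3 and was lower (edgeR adjusted p = 0.0115). Its call ended without control replicate 1 and without arginine-free replicate 1 (edgeR adjusted p = 0.156 and 0.15). MIDN lies 3.73 kb from ATP5F1D, a subunit of ATP synthase, which fell by 2.00 on the log2 scale, and 16.4 kb from FAM174C, at 0.59 (SE 0.40). Beside CCT5, CMBL, a hydrolase 11.2 kb away, was at -0.41 (SE 0.34), and SEMA5A, a guidance protein 704 kb away, was lower at -3.33 (SE 0.39, edgeR adjusted p = 2.18e-05).

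Within 500 kb of MIDN, edgeR called 0 of 17 other tested protein-coding rows higher (0 at an unadjusted p under 0.05 and 0 with DESeq2) and 4 lower (7 at an unadjusted p under 0.05 and 3 with DESeq2). Around SGTA 3 of 12 were higher and 2 lower. The higher ones were THOP1, SLC39A3 and OAZ1, an inhibitor of polyamine synthesis at 1.43 on the log2 scale, which was named after its value was seen. Around THOP1 1 of 12 was higher and 2 lower, around DNAJA1 1 of 7 was higher and none lower, and around VCP 1 of 8 was higher and 2 lower. For DNAJA1, 3 of 7 were higher at an edgeR unadjusted p under 0.05 and 0 with DESeq2. Of 2 tested rows near CCT5, edgeR called 0, also at an unadjusted p under 0.05, as did DESeq2. With so few rows a window, these counts are read beside the 15.1% called in each direction over the stretches, and nothing particular to a window was tested. The windows of MIDN and VCP reach past the ends of their stretches, and the 15.1% does not cover their rows there. Over all tested rows the shares were 16.0% higher and 16.9% lower.

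**Figure D4:**
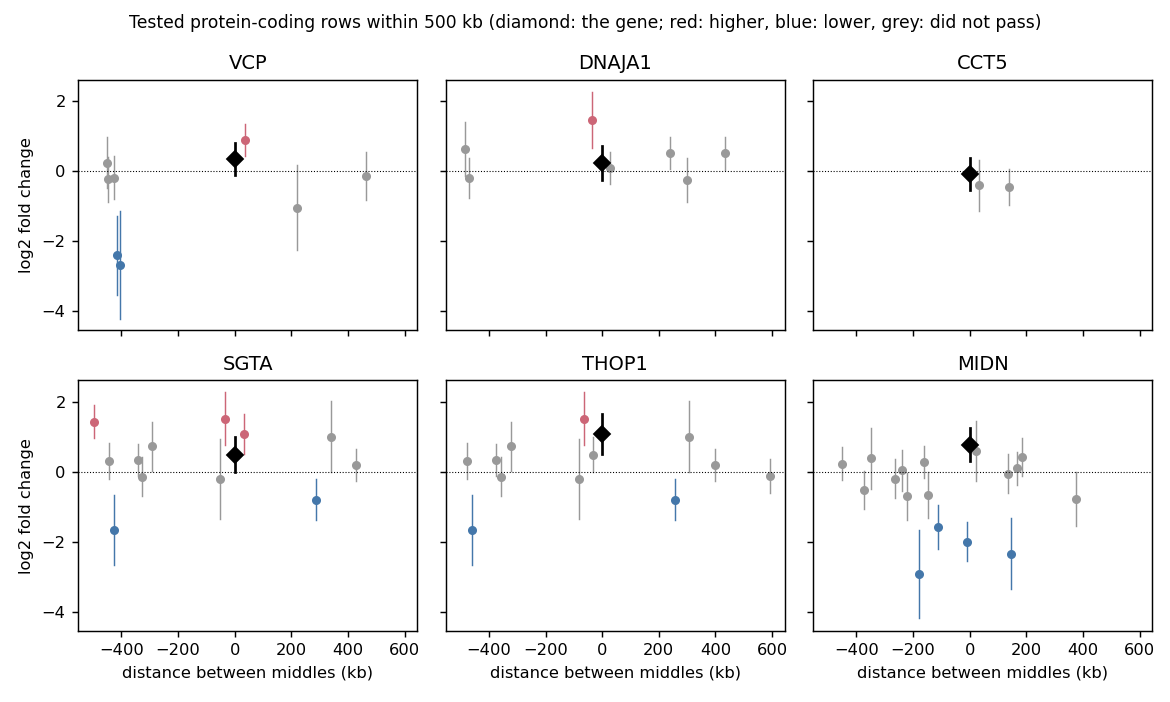
Log2 fold change (y axis, with 95% intervals) of each tested protein-coding row whose span comes within 500 kb of a member, by the distance in kb between the middles of the rows (x axis). Black diamonds are the members. Next to MIDN (0.77), ATP5F1D lies at -2.00, and next to DNAJA1 (0.22), APTX lies at 1.46.

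The genes of the stretches whose levels followed the members most closely were found as the smallest Euclidean distance between log2 CPM of the 4 libraries, each gene centred on its own mean, among 156 others. THOP1 was nearest to EEF2, the translation elongation factor (distance 0.10), and to RPS6, a ribosomal protein (0.18), and MIDN to the splicing factor SF3A2 (0.21). CCT5 was nearest to the transcription factor NFIC (0.11), VCP to RRAGA, a GTPase of amino acid sensing (0.17), and to OTULIN (0.17). DNAJA1 was nearest to PLAA (0.11) and SGTA to SH3GL1, an endocytosis protein (0.13). With 4 libraries in 2 groups, such a distance reflects little more than the size of the change and the spread within each medium.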

How the data were processed

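Footprints were counted in 4 libraries, 2 per medium, grouped by the sample titles. The deposited values are raw counts per gene, for which the authors ran featureCounts 2.0.1 on exons of GENCODE 47 basic, unstranded and with the paired-read option, per the file headers. Reads had been handled with cutadapt, Bowtie2 2.5.2 and TopHat2 on GRCh37 and hg19, as named in the submitters' processing notes. Totals were 105004 and 217989 in control and 234766 and 192006 in arginine-free medium, and a count of 0 allows 3 counts, or 28.6 CPM of all counts in the shallowest library and 12.8 in the deepest. Intervals on counts cover counting error only.

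Rows carry no symbols and were named by place against RefSeq of GRCh38.p14 (reciprocal best overlap, at least 0.5 of the union where a start or end is shared and 0.75 otherwise). This named 38559 rows. The whole table was fitted with edgeR 4.0.16 (R 4.3.3), with filterByExpr, TMM factors and the quasi-likelihood test, and adjusted over 2526 rows. The SE is the size of the log2 fold change divided by the root of F, and intervals use the test's degrees of freedom. DESeq2 1.42.0 was an alternative, as were 3 other scalings, other filters, nuclear rows alone, a replicate block and leaving out each library. On simulated counts with 200 changed rows, 37.9% of 2-fold and 89.5% of 4-fold changes of the comparison of media were called among 2258 rows tested, and 7 unchanged rows, with 1 dispersion for every row. An exact two-sided permutation test of 2 libraries against 2 cannot give a p below 0.333 and was not made.

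The members and lists were chosen with earlier results of these data known. Named are the members, list genes in the stretches with at least 20 reads, the nearest tested protein-coding row on each side and the rows most alike. A listed gene that is not reported here was left out of the lists and their counts. Replicate libraries differed by more than counting error (chi-square per degree of freedom 4.43 in control and 8.5 in arginine-free medium).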

Additional observations from a re-analysis of the deposited data

How the results depend on the processing

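Over 12 other settings, 64 of 72 values of the 6 members kept their direction and their side of the threshold. The calls for THOP1 and MIDN ended with DESeq2 (log2 fold changes 1.17 and 0.86) and without control replicate 2, where the lone control library is assumed to vary like the other group. With each library left out in turn THOP1 ran from 1.04 to 1.24, MIDN from 0.61 to 0.96 and CCT5 from -0.10 to 0.04. The sign turned for DNAJA1 under a filter of 50 counts in each library of 1 medium (-0.01) and for CCT5 with no filter (0.02), DESeq2 (0.01) and without arginine-free replicate 1 (0.04), none of which passed in any setting. That stricter filter, with 580 rows, moved the median of the rows it shares by -0.24, which lowers every member alike, and no filter moved it by 0.10. The cause of the other differences was not tested.

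Rows called over the table, 405 higher and 428 lower, numbered 138 and 146 with at least 50 counts, 162 and 147 with DESeq2, and from 270 to 418 higher and from 243 to 389 lower with a library left out, lowest without control replicate 2. Listed genes other than the members, 5 higher and 7 lower, numbered 0 and 4 with at least 50 counts, 1 and 1 with DESeq2, and from 3 to 6 higher and from 3 to 8 lower with a library left out (3 higher without arginine-free replicate 2, and 4, 3 and 4 lower without control replicate 1, control replicate 2 and arginine-free replicate 2).

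Of 291 values for 26 other named genes, 259 kept direction and side, 17 no longer passed, 2 newly passed (FZR1 and MARCHF6) and 13 turned sign. The 13 were all of values that did not pass. They were KLHL9 (-0.05 with library totals only, -0.03 with the replicate block, -0.02 without control replicate 1 and -0.19 without arginine-free replicate 1), UBE2R2 (-0.02 with library totals only, and -0.05 and -0.04 without control or arginine-free replicate 1), SMU1 (-0.16 with at least 50 counts and -0.04 without control replicate 1), and, with 1 library left out, FAM174C (0.00), PIAS4 (-0.08), PLAA (-0.11) and UBAP1 (0.15). With each library left out in turn, KLHL9 reached 0.23, UBE2R2 0.17, SMU1 0.24, FAM174C 1.21, PIAS4 0.94, PLAA 0.52 and UBAP1 -1.17 at the other end. TOPORS ran from 0.28 to 1.04, UHRF2 from -1.81 to -0.16, DNAJC21 from -0.76 to -0.03 and UBAP2 from 0.05 to 0.48, and none of these passed.

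Same-numbered libraries of the media did not deviate together (correlation -0.0528 over 2526 rows). With so few libraries and many rows of low count, this cannot tell if they were prepared as pairs. With the replicate block, THOP1 was at 1.09 and MIDN at 0.77 and both passed, VCP, DNAJA1, CCT5 and SGTA were at 0.34, 0.20, -0.08 and 0.48 and did not, and 354 rows were higher and 372 lower. Of the other named genes TLE5 did not pass with it. Coding length in place of exon length was not run, since no protein lengths were used here. Depth limits the rows of THOP1 and SGTA most, at 231 and 370 reads.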
